A study of Mus musculus with 6 samples.

Results

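The miR-181 family is a set of microRNAs, short RNAs that guide repression of mRNAs, cut in mouse from 6 hairpins at 3 loci. Its members were taken by name from the deposited table: the strands mmu-miR-181a-5p, mmu-miR-181b-5p, mmu-miR-181c-5p, mmu-miR-181d-5p, mmu-miR-181a-1-3p, mmu-miR-181a-2-3p and mmu-miR-181c-3p, written below without the species prefix. All 7 were listed, among 1184 miRNAs, and all 7 were among the 387 miRNAs abundant enough to be tested, with a scaled value above the minimum of 5 in each of the 6 libraries. The other 3 strands of the same hairpins (miR-181b-1-3p, miR-181b-2-3p and miR-181d-3p) were also listed and are described beside them.

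MicroRNAs were sequenced from GMLPs, a progenitor population sorted from mouse bone marrow and cultured for 3 days with doxycycline (DOX), an antibiotic commonly used to switch on inducible transgenes. ME libraries (n = 3) have the genotype MLL-ENL, a leukaemia fusion gene. L28BME libraries (n = 3) have the genotype LIN28B MLL-ENL, and so carry in addition LIN28B, a fetal RNA-binding protein that blocks the maturation of let-7 microRNAs. Both groups share the fusion gene and the culture with DOX, so no group lacks them. The labels used here give no age or strain, do not say what drives either gene, and do not say whether the libraries came from separate mice, so a p-value here sets a difference against library-to-library spread that may be technical only.

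A microRNA is made when a hairpin is cut into a 5p and a 3p strand, of which one is usually loaded into Argonaute and the other is mostly lost. The bases near the 5′ end of the loaded strand, the seed, choose its targets. In blood miR-181 is best known in the lymphoid lineage: it promotes B cell development when overexpressed and tunes the sensitivity of T cell receptor signalling in the thymus. The family has also been reported to repress Lin28 mRNA, and its members have been studied as markers and modifiers of acute myeloid leukaemia.

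The 4 strands of the 5p arm are shown first because they share 1 seed (bases 2 to 8, in capitals), so that their levels add up to the supply of that seed. All 10 strands matched an entry of the RefSeq table (GRCm38.p6). No other of the 1679 mature miRNAs of that table had the seed ACAUUCA.
miR-181a-5p: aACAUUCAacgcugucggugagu
miR-181b-5p: aACAUUCAuugcugucgguggguu
miR-181c-5p: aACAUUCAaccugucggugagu
miR-181d-5p: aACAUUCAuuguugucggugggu

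Counted from the 5′ end, miR-181b-5p differs from miR-181a-5p by A9U, C10U and A21G and is 1 base longer. miR-181d-5p differs from miR-181b-5p at the single position C12U within their shared length, and is 1 base shorter. miR-181c-5p has an edit distance of 1 from miR-181a-5p and is 1 base shorter. Reads of such close sequences could be split between members in counting, so single 5p members are uncertain to that extent.

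The 3p strands are shown because, unlike miR-181a-5p and miR-181b-5p, they tell the loci apart. Capitals again mark bases 2 to 8.
miR-181a-1-3p: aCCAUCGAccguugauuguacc
miR-181a-2-3p: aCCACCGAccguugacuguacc
miR-181c-3p: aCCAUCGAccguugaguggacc
miR-181b-1-3p: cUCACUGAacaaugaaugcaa
miR-181b-2-3p: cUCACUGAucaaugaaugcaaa
miR-181d-3p: cCCACCGGgggaugaauguca

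miR-181a-1-3p and miR-181c-3p share the seed CCAUCGA and differ by U16G and U19G. miR-181a-2-3p differs from miR-181a-1-3p by U5C and U16C, the first inside the seed, so the seed CCACCGA belongs to it alone among the 10 strands. The 10 strands are 21 to 24 bases long, so reads per strand are close to reads per length, although ligation and amplification can favour some sequences.

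The loci are named here in GRCm38 with the GENCODE M21 annotation. Mir181a-1 (chromosome 1, 137966455 to 137966541, plus strand) and Mir181b-1 (137966639 to 137966718) lie in an intron of the transcript Gm4258, and Mir181b-1 also overlaps an exon of the lincRNA A430106G13Rik. Mir181a-2 (chromosome 2, 38852735 to 38852810, plus strand) and Mir181b-2 (38853830 to 38853918) lie opposite an intron of Nr6a1, a gene for an orphan nuclear receptor, which is transcribed from the other strand. The mature strands of Mir181c (chromosome 8, 84178885 to 84178945, minus strand) and the hairpin Mir181d (84178716 to 84178787) lie in an intron of Nanos3, a germ cell gene, on the same strand. miR-181a-5p is identical in Mir181a-1 and Mir181a-2, and miR-181b-5p in Mir181b-1 and Mir181b-2, so reads of these 5p strands cannot be assigned to chromosome 1 or 2.

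The libraries held 4778027 to 5528960 reads in ME and 2745970 to 4332618 in L28BME, recovered from the deposited scaled values. The expected effect of LIN28B was visible as a check of the labels: let-7 guides took a mean of 26.7% of miRNA reads (SD 0.710, n = 3) in ME libraries but 3.26% (SD 0.0450, n = 3) in L28BME libraries. Because let-7 fell so far, the way libraries are scaled matters for every small change. With the deposited scaling the median log2 change of the 387 tested miRNAs was -0.014, and 93 were higher and 124 lower in L28BME (limma, adjusted p under 0.05). With plain library size the median was 0.46, with 242 higher and 33 lower, so the share of higher miRNAs among those called went from 42.9% to 88.0%.

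Of the 7 miR-181 members 2 passed the test and were lower in L28BME, by small factors. The guides miR-181a-5p and miR-181b-5p and the strand miR-181a-1-3p made up most of the family in both groups. miR-181d-5p fell 1.33-fold and miR-181c-3p 1.21-fold, both from the chromosome 8 locus. The other 5 members did not pass the test, and 0 members rose. Among all tested miRNAs 32.0% were called lower and 24.0% higher (56.1% in either direction), so the share of called members was no larger than that of miRNAs in general. The median log2 change of the 7 members was -0.20, beside -0.014 for all tested miRNAs, and 3 members, all lower, did not overlap between groups, where 33.6% of tested miRNAs were lower without overlap (61.5% in either direction).

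**Figure D1:**
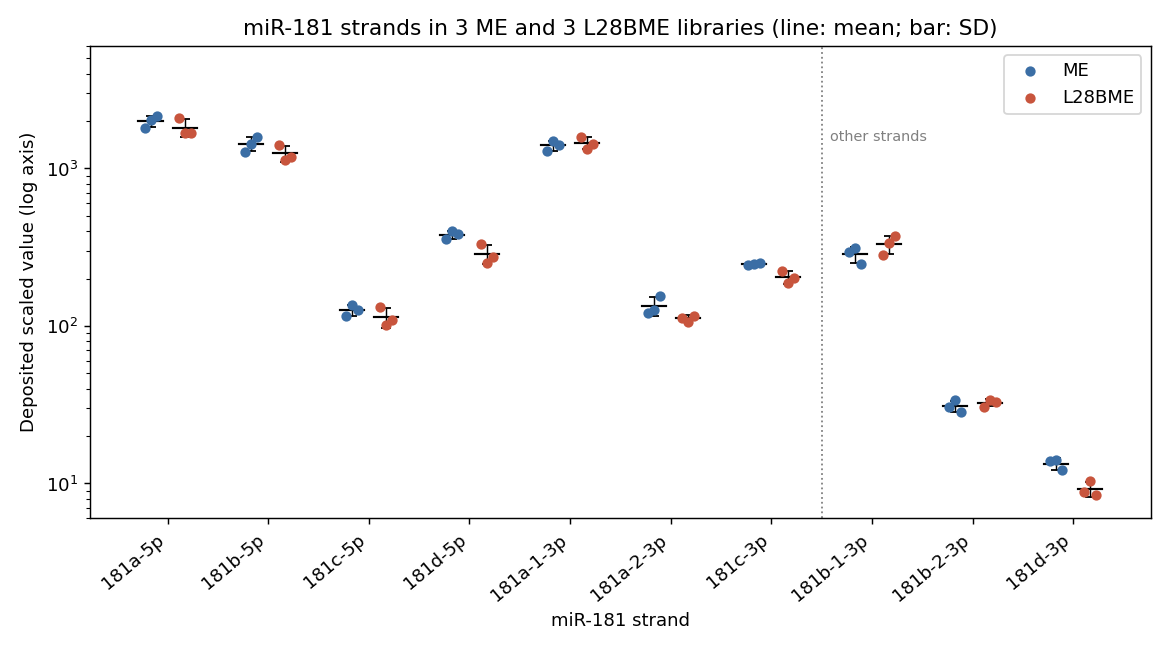
Deposited scaled value (log axis) of the 7 miR-181 members and, right of the dotted line, the other 3 strands, in each ME (blue) and L28BME (red) library, with the group mean (line) and SD (bar). The groups separate for miR-181d-5p, miR-181a-2-3p, miR-181c-3p and miR-181d-3p, all lower in L28BME, and overlap for the other 6 strands.

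Among the guide strands, miR-181a-5p, the member with the strongest link to T and B cell development, was the most abundant. Its scaled values were 1809, 2046 and 2139 in ME libraries 001, 002 and 003 and 2093, 1670 and 1688 in L28BME libraries 004, 005 and 006. Library 004 lay among the ME values and the other L28BME libraries lay below them, so the groups overlapped. The log2 change was -0.14 (SE 0.10) with a limma adjusted p = 0.238, which does not show that the level was the same. It ranked 54th of all listed miRNAs in ME and 51st in L28BME by mean value.

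miR-181b-5p, cut from the neighbouring hairpins of miR-181a and with the same seed, followed it closely. Its scaled values were 1279, 1439 and 1576 in ME and 1411, 1134 and 1190 in L28BME, in library order. Library 004 was again the highest of its group and within the ME range. It changed by -0.20 on the log2 scale (SE 0.10, limma adjusted p = 0.103). Without L28BME library 004 both abundant guides were past the threshold, at -0.25 for miR-181a-5p (limma adjusted p = 0.0491) and -0.30 for miR-181b-5p (limma adjusted p = 0.0267), and miR-181b-5p also without ME library 001 (-0.28, limma adjusted p = 0.0307). In the other direction, miR-181a-5p shrank to -0.084 without L28BME library 005, -0.092 without L28BME library 006 and -0.090 without ME library 003, and miR-181b-5p to -0.13 without ME library 003 and -0.14 without L28BME library 005 (limma adjusted p from 0.213 to 0.560).

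miR-181c-5p, the least abundant guide, had scaled values of 116, 137 and 127 in ME and 133, 101 and 108 in L28BME. The groups overlapped through library 004, and the log2 change was -0.15 (SE 0.12, limma adjusted p = 0.267). It was counted with 347 to 703 reads per library.

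miR-181d-5p, the chromosome 8 partner of miR-181c, was the guide that fell. Its scaled values were 356, 401 and 384 in ME (380 ± 22.8) and 331, 253 and 276 in L28BME (287 ± 40.4, with SD over 3 libraries). All 3 L28BME libraries lay below all 3 ME libraries, library 004 nearest to them. The log2 change was -0.41 (SE 0.11, limma adjusted p = 0.00493). In the authors' deposited table it is -0.40, with an FDR p of 0.00139. The call held in 15 of 16 alternatives, with limma, edgeR or DESeq2 adjusted p from 0.000651 to 0.0327, and was absent with plain library size (0.082, limma adjusted p = 0.519).

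On the 3p side miR-181a-1-3p, the opposite strand of the chromosome 1 hairpin, was less abundant than miR-181a-5p in every library. Its mean was near that of miR-181b-5p in ME (1400 and 1431) and above it in L28BME (1449 and 1245). It was more abundant than miR-181d-5p and miR-181c-5p in every library. Its scaled values were 1290, 1497 and 1413 in ME and 1583, 1336 and 1429 in L28BME, and the log2 change was 0.049 (SE 0.090) with a limma adjusted p = 0.667. The groups overlapped and the highest value of all 6 libraries was in L28BME. With plain library size it was higher by 0.55 (limma adjusted p = 5.70e-05), next to the median of 0.46 for all tested miRNAs under that scaling.

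miR-181a-2-3p, its counterpart from chromosome 2, was a much scarcer strand. Its scaled values were 121, 126 and 155 in ME and 113, 106 and 116 in L28BME. The groups did not overlap, though the nearest libraries were close, and the log2 change of -0.26 (SE 0.11) did not pass (limma adjusted p = 0.0603). Without ME library 001 it did (-0.33, limma adjusted p = 0.0264), while without ME library 003 the change shrank to -0.15 (limma adjusted p = 0.201).

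miR-181c-3p was more abundant than its own 5p strand in all 6 libraries, so the name guide, used here for the 5p arm, does not follow level at this hairpin. Its scaled values were 244, 249 and 251 in ME (248 ± 3.51) and 225, 187 and 203 in L28BME (205 ± 19.1, SD, n = 3 each), without overlap. The log2 change was -0.28 (SE 0.095, limma adjusted p = 0.0211). The call was lost without ME library 002, L28BME library 005 or L28BME library 006 (limma adjusted p = 0.0601, 0.121 and 0.0794), and with the library total without let-7 (-0.19, limma adjusted p = 0.126). In the authors' deposited table its FDR p is 0.0653.

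The 3 other strands complete the loci. miR-181d-3p, the scarcest at 27 to 64 reads per library, had scaled values of 13.9, 14.1 and 12.1 in ME and 8.89, 10.4 and 8.43 in L28BME. It fell by 0.49 on the log2 scale (SE 0.16, limma adjusted p = 0.0164) without overlap between groups, and the call was lost in 5 of 16 alternatives, among them those without ME library 002, L28BME library 004 or L28BME library 006 (limma adjusted p = 0.0525, 0.0518 and 0.0761). miR-181b-1-3p had 296, 312 and 246 in ME and 284, 335 and 372 in L28BME (log2 change 0.21, SE 0.12, limma adjusted p = 0.129). It was past the threshold, and higher, with the library total without let-7 (0.31, limma adjusted p = 0.0156) and without L28BME library 004 (0.32, limma adjusted p = 0.0349). The same held with plain library size (0.71, limma adjusted p = 1.07e-05). miR-181b-2-3p, at 30.6, 33.8 and 28.5 in ME and 30.8, 33.9 and 33.1 in L28BME, changed by 0.075 on the log2 scale (SE 0.12, limma adjusted p = 0.611). It too was called higher with plain library size (0.56, limma adjusted p = 0.000417), where the median of all tested miRNAs was 0.46.

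Sorted by locus, the 4 strands of chromosome 8 all had negative log2 changes and 3 of them (miR-181c-3p, miR-181d-5p and miR-181d-3p) passed the test, beside 32.0% of all tested miRNAs called lower. This grouping followed the values and is a description. In the authors' deposited table only miR-181d-5p of the locus has an FDR p under 0.05, with 0.0653 for miR-181c-3p and 0.0513 for miR-181d-3p. With plain library size no strand of the locus was called lower, and miR-181c-5p was called higher (0.34, limma adjusted p = 0.0183). With the deposited scaling the 3p strands of chromosome 1 had changes of 0.049 and 0.21, and those of chromosome 2 of -0.26 and 0.075. Of these, 0 were past the threshold. The chromosome 8 strands held 12.7% ± 0.465 of the reads of all 10 strands in the ME libraries and 11.0% ± 0.280 in those of L28BME (SD, n = 3). The chromosome 1 3p strands took 27.9% ± 1.48 and 31.9% ± 1.63. Both shares kept the groups apart, with all L28BME libraries lower for chromosome 8 and higher for chromosome 1. The chromosome 2 3p strands took 2.73% ± 0.171 and 2.59% ± 0.240, and the groups overlapped. These sums were chosen after the single values were seen and were not tested.

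**Figure D2:**
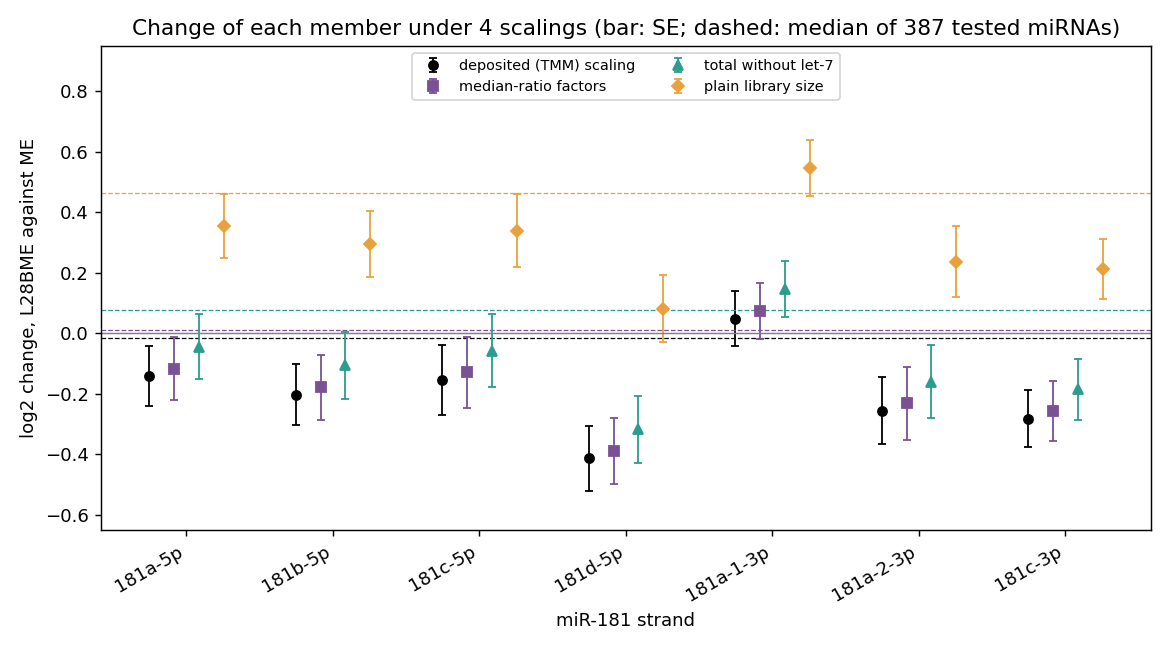
log2 change of each member, L28BME against ME, with its SE (bar) under the deposited, median-ratio, let-7-free total and plain library-size scalings, with the median of the 387 tested miRNAs under each as a dashed line. miR-181d-5p is the lowest member and miR-181a-1-3p the highest under all 4 scalings, and with plain library size all 7 lie above 0.

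The order of levels was largely shared by the groups. In ME it ran miR-181a-5p, miR-181b-5p, miR-181a-1-3p, miR-181d-5p, miR-181c-3p, miR-181a-2-3p and miR-181c-5p. The pair miR-181b-5p and miR-181a-1-3p (means 1431 and 1400) and the pair miR-181a-2-3p and miR-181c-5p (134 and 127) overlapped between libraries, and the other neighbours did not. In L28BME the means of both pairs stood in the other order, miR-181a-1-3p before miR-181b-5p (1449 and 1245) and miR-181c-5p before miR-181a-2-3p (114 and 112), again with overlap. Some single libraries differed from these means. miR-181b-5p was above miR-181a-1-3p in only 1 of 3 ME libraries, while miR-181a-1-3p was above miR-181b-5p in all 3 L28BME libraries. miR-181c-5p was above miR-181a-2-3p in only 1 of 3 L28BME libraries. The order within single libraries thus did not separate the groups for either pair. How far apart the strands of a pair stood within a library was not compared here. The step from the 3 abundant strands to the rest was 3.68-fold in ME (miR-181a-1-3p over miR-181d-5p) and 4.34-fold in L28BME (miR-181b-5p over miR-181d-5p).

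Ratios between strands within a library do not depend on the scaling between libraries. Of 8 ratios, 4 did not overlap between the groups. With 3 libraries against 3 the smallest exact two-sided permutation p is 0.1, so no ratio could pass the threshold. Each of the 4 reached that value (0.2 after Benjamini-Hochberg adjustment over the 8).

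Among the guides, the ratio of miR-181d-5p to miR-181c-5p compared the guides of the neighbouring chromosome 8 hairpins and had the smallest SE of the 8. It was 3.06, 2.93 and 3.03 in ME and 2.49, 2.50 and 2.54 in L28BME (log2 difference -0.26, SE 0.022). The ratio of miR-181d-5p to miR-181a-5p was 0.197, 0.196 and 0.179 in ME and 0.158, 0.151 and 0.163 in L28BME (log2 difference -0.27, SE 0.054). In both ratios the L28BME libraries lie closer to each other than to ME, and library 004 does not stand apart. The ratios of miR-181b-5p and miR-181c-5p to miR-181a-5p overlapped, with log2 differences of -0.061 (SE 0.029, exact permutation p = 0.2) and -0.014 (SE 0.057, exact permutation p = 0.8). For scale, the ratio to miR-181a-5p kept the groups apart for 44.9% of the 383 other tested miRNAs with reads in every library.

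Between arms, miR-181a-1-3p stood at 0.713, 0.732 and 0.661 of miR-181a-5p in ME and at 0.757, 0.800 and 0.846 in L28BME, higher in each L28BME library (log2 difference 0.19, SE 0.065). The 3p-to-5p ratio did not overlap between groups for 33.0% of 109 such pairs in the table. miR-181a-2-3p against miR-181a-5p overlapped (log2 difference -0.12, SE 0.12, exact permutation p = 0.5), and so did miR-181c-3p against miR-181c-5p (-0.13, SE 0.076, exact permutation p = 0.3). The chromosome 2 strand miR-181a-2-3p relative to the chromosome 1 strand miR-181a-1-3p was 0.0936, 0.0845 and 0.110 in ME and 0.0714, 0.0792 and 0.0813 in L28BME, lower in each L28BME library (log2 difference -0.31, SE 0.12). After the values were seen the chromosome 8 strand miR-181c-3p was also set against miR-181a-1-3p: it was 0.189, 0.166 and 0.178 of it in ME and 0.142, 0.140 and 0.142 in L28BME.

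**Figure D3:**
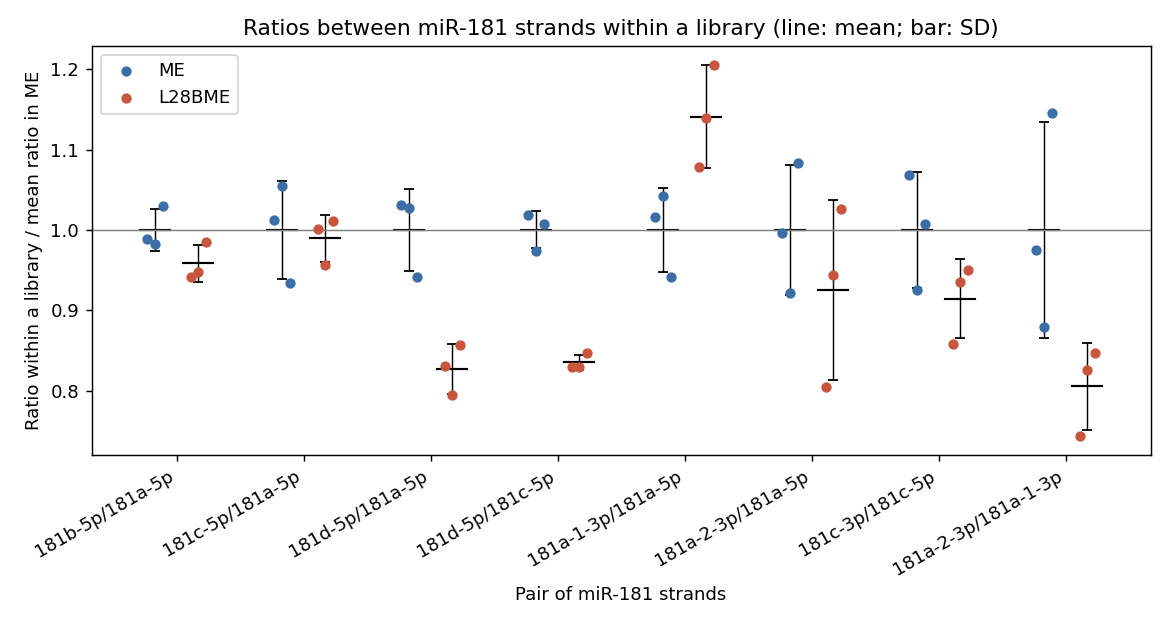
Ratio of 2 miR-181 strands within each ME (blue) and L28BME (red) library, divided by the mean ratio in ME, with the group mean (line) and SD (bar). The ratios of miR-181d-5p and that of miR-181a-2-3p to miR-181a-1-3p lie lower in all 3 L28BME libraries, that of miR-181a-1-3p to miR-181a-5p lies higher, and the other 4 ratios overlap.

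Hairpin sequences are shown for the members with the highest and the lowest log2 change, miR-181a-1-3p (Mir181a-1) and miR-181d-5p (Mir181d), with their mature strands in capitals. LIN28 proteins bind the GGAG motif in the loop of let-7 precursors. The letters GGAG were therefore looked for in the RNA strand of each hairpin with a sequence at hand.
Mir181a-1: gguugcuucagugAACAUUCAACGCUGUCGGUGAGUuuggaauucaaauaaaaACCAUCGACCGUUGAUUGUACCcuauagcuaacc
Mir181d: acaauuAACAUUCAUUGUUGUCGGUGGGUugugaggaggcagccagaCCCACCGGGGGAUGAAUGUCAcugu

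Of the 5 miR-181 hairpins in the RefSeq table (Mir181a-1, Mir181a-2, Mir181b-1, Mir181b-2 and Mir181d), 1 held GGAG between its mature strands, and that was Mir181d, in the 18-base stretch ugugaggaggcagccaga. Such a match was found in 8.07% of the 644 stretches between 2 mature strands in that table, and 44.5% of 1005 whole hairpins. No hairpin sequence was at hand for Mir181c, the source of miR-181c-3p and miR-181c-5p, so it was not searched. A match of these letters describes the sequence and is not a binding site. Their absence from the other 4 searched hairpins says nothing about binding.

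As a share of the library, the 7 members took 0.432%, 0.485% and 0.535% of miRNA reads in ME and 0.723%, 0.566% and 0.587% in L28BME. These shares did not overlap, and the means were 0.484% ± 0.0518 and 0.625% ± 0.0851 (SD, n = 3 each). Among reads outside let-7 the shares were 0.661% ± 0.0768 and 0.647% ± 0.0879, and the groups overlapped. The choice of denominator therefore moved the ME value but hardly the L28BME value, where let-7 took few reads. The 4 guide strands together had a summed scaled value of 3936 ± 341 in ME and 3463 ± 441 in L28BME, with overlap. Fewer molecules per cell and fewer cells with the strand cannot be told apart in these bulk libraries.

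Within the seed family miR-181a-5p supplied 50.8% ± 0.129 of reads in ME and 52.5% ± 0.621 in L28BME, without overlap. miR-181b-5p supplied 36.3% ± 0.840 and 36.0% ± 0.464, and miR-181c-5p 3.22% ± 0.205 and 3.29% ± 0.0742 (SD, n = 3 each), both with overlap. miR-181d-5p supplied 9.68% ± 0.517 in ME and 8.27% ± 0.233 in L28BME, lower in every L28BME library. The supply of the seed was thus made up of the same 4 strands in nearly the same proportions. The share of miR-181d-5p was slightly smaller in L28BME and that of miR-181a-5p slightly larger. Shares add to a fixed total, and the mean scaled value of miR-181a-5p did not itself rise (1998 in ME and 1817 in L28BME).

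**Figure D4:**
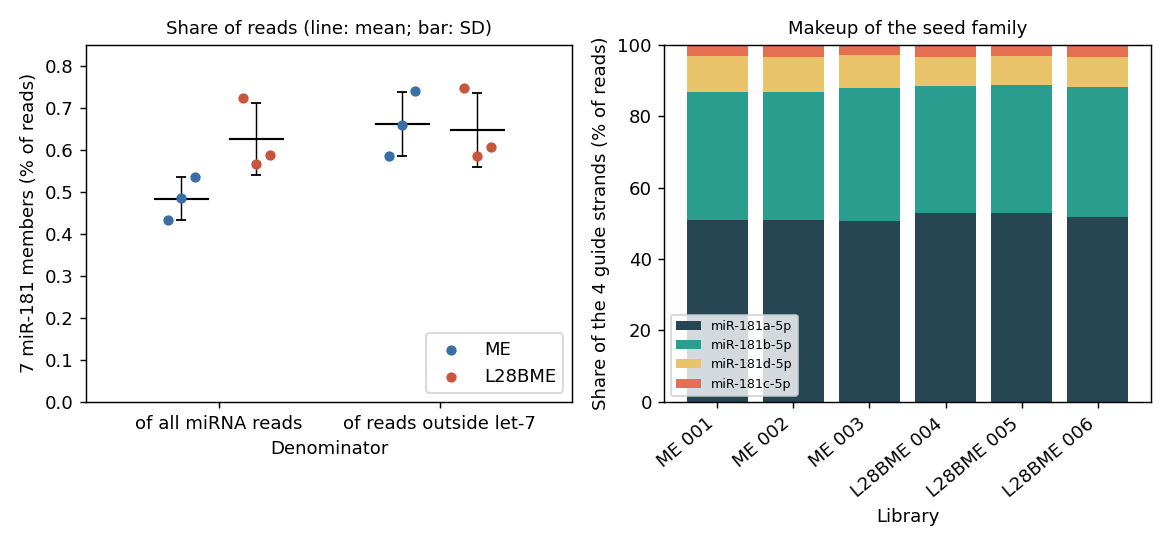
Left, the 7 miR-181 members as a percentage of all miRNA reads or of reads outside let-7 in each ME (blue) and L28BME (red) library, with the group mean (line) and SD (bar). Right, the share of each of the 4 guide strands in their summed reads by library: miR-181a-5p supplies about as much in each library (50.8% ± 0.129 in ME, 52.5% ± 0.621 in L28BME), and the miR-181d-5p band is narrower in L28BME.

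The miRNAs whose centred profile over the 6 libraries was nearest to miR-181a-5p, among 164 other tested miRNAs with a mean of at least 100, were miR-181b-5p, miR-181c-5p and miR-17-3p (root mean square differences of 0.042, 0.057 and 0.064 on the log2 scale). The first 2 are its own family, and miR-181d-5p came 21st (0.15). Nearest to miR-181d-5p were miR-652-3p, miR-378c and miR-21a-5p (0.057, 0.063 and 0.063), all lower in L28BME (miR-652-3p without a call in 5 of 16 alternatives), and miR-181c-3p of its own locus came 5th (0.087). The opposite strand miR-181a-1-3p was 10th in likeness to miR-181a-5p and 73rd to miR-181d-5p.

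Other miRNAs with related roles went in several directions. For scale, among all 387 tested miRNAs 32.0% were called lower and 24.0% higher, and with plain library size 242 were higher and 33 lower. The counts of the lists are descriptions and were not tested against these shares. Of 8 lymphoid and T cell activation miRNAs 1 rose (miR-342-3p, 1.37 on the log2 scale) and 3 fell (median log2 change -0.14), and with plain library size 5 were higher and 1 lower. The third that fell was miR-182-5p (-0.53), a call absent with plain library size (-0.035, limma adjusted p = 0.740). The most abundant members were miR-146a-5p and miR-155-5p, regulators of inflammatory and lymphocyte signalling that fell by 0.91 and 0.54 on the log2 scale (limma adjusted p = 8.61e-08 and 2.46e-05), and miR-17-5p and miR-128-3p, which did not pass (0.0018 and 0.094). With plain library size miR-155-5p was not past the threshold (-0.043, limma adjusted p = 0.600). Of 7 haematopoietic and myeloid miRNAs 3 fell and 0 rose (5 higher and 0 lower with plain library size). miR-223-3p and miR-142a-3p, the most abundant, had changes of -0.0077 and 0.094, neither past the threshold, and miR-142a-5p had 0.21 (limma adjusted p = 0.0519). miR-142a-5p was called higher in 7 of 16 alternatives, edgeR (adjusted p = 0.00948) and DESeq2 (adjusted p = 0.0107) among them, and miR-142a-3p in 2. The 3 that fell were miR-21a-5p (-0.49, limma adjusted p = 0.000585), miR-22-3p (-0.41, limma adjusted p = 0.00355) and miR-223-5p (-0.20, limma adjusted p = 0.0458). The call of miR-223-5p was lost in 11 of 16 alternatives, edgeR (adjusted p = 0.073) and DESeq2 (adjusted p = 0.0616) among them, and its sign turned with plain library size (0.30, limma adjusted p = 0.00267).

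Of 8 other miRNAs reported to repress Lin28 mRNA (miR-125a-5p, miR-125b-5p, miR-9-5p and 5 miR-30 guides), 3 fell and 0 rose, with a median log2 change of -0.092. Beside 32.0% of all tested miRNAs called lower and 24.0% higher, this count does not set the list apart. miR-30d-5p, the most abundant, fell from 7860 ± 404 to 5566 ± 238 in scaled value (SD over 3 libraries), a log2 change of -0.50 with a limma adjusted p = 7.95e-05. The other members that fell were miR-30a-5p (-1.07) and miR-125b-5p (-0.75). miR-30e-5p, miR-30c-5p and miR-30b-5p did not pass (0.084, -0.082 and -0.071). With plain library size 5 of the 8 were higher and 2 lower, beside 242 higher and 33 lower of all 387 tested miRNAs. miR-30d-5p was not past the threshold there (-0.00070, limma adjusted p = 0.993).

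Listed markers of other cells were scarcer than the 3 abundant miR-181 strands, but the stromal sum, mostly miR-199a-3p (190 in ME and 353 in L28BME), and the epithelial sum were near the level of miR-181d-5p and miR-181c-3p. The 4 erythroid miRNAs were under the filter and summed to a scaled value of 4.41 to 7.12 in ME and 9.68 to 10.8 in L28BME, with miR-144-3p at 0 reads in ME. The 5 stromal and endothelial miRNAs summed to 189 to 208 and 353 to 361, nearly all of it miR-199a-3p. That strand, the 1 tested, was higher in L28BME (0.89, limma adjusted p = 1.09e-06). Under the filter, miR-199a-5p (0.613 in ME and 0.0789 in L28BME) and miR-10b-5p (2.90 and 1.73) had lower means in L28BME. miR-143-3p (1.75 and 2.59) and miR-145a-5p (0.0736 and 0.287) had higher means. The stromal sum thus describes miR-199a-3p and not the list. Of 10 epithelial, liver, muscle and neural miRNAs 7 were listed, summing to 260 to 288 and 228 to 239. Of these 5 were tested and 1 was lower (miR-203-3p, -0.46, limma adjusted p = 0.00124), beside 32.0% of all tested miRNAs. Their part in the changes of miR-181d-5p and miR-181c-3p was not tested.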

How the data were processed

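The authors deposited 1 table of 1452 features (1184 miRNAs, 268 piRNAs). Its scaled signal is called CPM per the file headers, but 100% of values were whole multiples of the smallest in their library (tolerance 0.001), so read counts were recovered from the deposited values; their divisor equals the read total times edgeR's TMM factor. The authors' deposited log2 fold changes, p-values and signed fold score have no named tool. The build was GRCm38 per the submitters' processing notes, and libraries used the QIAseq miRNA kit, per the labels' protocols. The handling of its molecular identifiers is not given in the sources used here. Column names hold the group with a library number from 001 to 006, and libraries are named by it.

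A miRNA was tested if 3 or more libraries reached a value of 5, which left 387. limma's trend test on log2(value + 1), two-sided, was adjusted over all of them (Benjamini-Hochberg) with 0.05 as the threshold; such log2 changes understate those of scarce miRNAs, and folds are ratios of means. The plan assumed CPM, and the same test was used on the scaled signal. Ratios were compared by exact permutation. Every pair of replicate libraries differed beyond counting noise (chi-square over its degrees of freedom, 12.1 to 65.8). Code was tested on simulated data. Members, lists and tests were chosen with earlier results of these data known. Named miRNAs are the members and the other strands, the 3 nearest profiles of 2 members, and up to 4 abundant members of each list; others, such as miR-199a-3p, were named to complete a count after their values were seen. The fits used limma 3.58.1, DESeq2 1.42.0 and edgeR 4.0.16 in R 4.3.3, and SciPy 1.17.1 the permutations.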

Additional observations from a re-analysis of the deposited data

How the results depend on the processing

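Over all tested miRNAs 168 to 275 were called in the alternatives, against 217. The count of miR-181 members past the threshold, 2 (both lower), became 4 with plain library size (all higher) and 1 with the library total without let-7, and ran from 1 to 4 when each library was left out. With edgeR, DESeq2, limma without trend, other pseudocounts, other filters and median-ratio factors it was 2. With plain library size, which moved the median of all tested miRNAs to 0.46, the sign turned for miR-181a-5p (0.36), miR-181b-5p (0.29), miR-181c-5p (0.34), miR-181d-5p (0.082), miR-181c-3p (0.21) and miR-181a-2-3p (0.24, not past the threshold under either scaling), and likewise for miR-223-3p (0.49), miR-21a-5p (0.0072), miR-30c-5p (0.41), miR-30b-5p (0.43), miR-17-3p (0.38), miR-652-3p (0.13), miR-378c (0.13), miR-223-5p (0.30) and miR-22-3p (0.088). miR-30d-5p, miR-155-5p and miR-182-5p lost their calls there without a change of sign. miR-181d-3p lost its call with DESeq2 (adjusted p = 0.102) among others. The family's share in ME was 0.661% among reads outside let-7, against 0.484% of all miRNA reads. With pseudocounts of 0.5 and 5, 4 of the 8 ratios kept the groups apart. When a library was left out the count ran from 4 to 6. Leaving out a library cannot make separate groups overlap, so this count could not fall and is no check of the ratios. No paired analysis was possible because column names give library numbers without the labels' replicate numbers, and a fit with a replicate block was thus left out. Depth limits miR-181d-3p most.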
